A study of Homo sapiens with 4 samples.

Results

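The cytosolic ribosomal protein genes encode the proteins of the ribosome outside mitochondria. They were taken by symbol from the deposited gene counts: RPL and RPLP symbols for the large (60S) subunit, and RPS symbols, RPSA and FAU for the small (40S) subunit. This gave 78 of 23228 gene symbols, 46 of the large and 32 of the small subunit. RNA was sequenced from U87 MG, an established human glioblastoma line, 72 hours after transfection with a small interfering RNA (siRNA) against PELP1 or with a control siRNA, with 2 libraries in each group. Both groups shared the line, the serum-containing medium and the oligofectamine transfection. How many siRNAs were used, and with what sequence, is not given in the sources used here, so effects of PELP1 loss and of the siRNA itself cannot be told apart. The labels give duplicates without saying whether they were separate cultures. All p-values therefore measure only the spread among these 4 samples, which may be technical.

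Each ribosome holds 1 copy of most of these proteins, folded around ribosomal RNA. Their mRNAs are among the most abundant in growing cells, are short, and mostly begin with a 5′ terminal oligopyrimidine (5′ TOP) tract, a C followed by a run of pyrimidines through which mTORC1 and the LARP proteins control their translation. Control of this kind acts on ribosome loading and is not read by RNA counts. PELP1 is a coactivator of nuclear receptors that also works as a scaffold with SENP3, WDR18, TEX10 and LAS1L in the maturation of the large subunit. Ribosomal protein genes have left many processed pseudogenes in the genome, so that short reads from them often align to several places.

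PELP1 itself stood at 15.2 and 17.7 CPM (a gene's count as a rate of its library's scaled total) in the PELP1 siRNA libraries, against 74.0 and 78.1 CPM in the control siRNA libraries. The groups were far apart, with a log2 fold change of -2.21 (SE 0.097, adjusted p = 8.32e-14), where every log2 fold change is PELP1 siRNA over control siRNA. Gene counts came to between 18670162 and 22858988 per library. Counts of the PELP1 siRNA pair differed by a chi-square of 7.13 per gene and those of the control siRNA pair by 2.09, both above sampling noise, and all 4 libraries were kept as separate samples. VIM, an intermediate filament of mesenchymal and glioma cells, was at 5610 and 6056 CPM in the PELP1 siRNA libraries, against 7021 and 7140 CPM in the control siRNA libraries. The astrocyte marker GFAP lay between 1.22 and 1.84 CPM, and CDKN2A, which the line lacks, had no counts. The markers of immune, endothelial, epithelial, oligodendrocyte, neuronal and melanocyte cells reached at most 1.68 CPM in any library, the value of the epithelial EPCAM in PELP1 siRNA library 1. EPCAM was at 1.68 and 1.53 CPM with PELP1 siRNA, against 0.67 and 0.89 CPM with control siRNA (log2 fold change 1.02, adjusted p = 0.0188), and its part in the results was not tested. In bulk RNA, fewer cells of a kind and less RNA per cell cannot be told apart.

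The start sequences of 8 members that changed, described with their values further on, are shown for the 5′ TOP tract by which the family is known. They come from RefSeq on GRCh38.p14, run 5′ to 3′ on the gene's strand from 5 bases before the annotated start over 25 bases, and carry the longest pyrimidine run that begins with C in capitals. RPL3 and RPL36A were the members that fell, RPS3A, RPS6 and RPS7 the small subunit members that rose, and RPL24, RPL35A and RPL22 the large subunit members with the largest rises.
RPL3, chr22:39319604-39319628, minus strand: ccggCCTCTaccggcgggatttgat
RPL36A, chrX:101391006-101391030, plus strand: ggtttCTTTCTTTCCgcgccgatag
RPS3A, chr4:151099623-151099647, plus strand: ttccgCCCTTTTggctctctgacca
RPS6, chr9:19380217-19380241, minus strand: tggCCCTCTTTTCCgtggcgcctcg
RPS7, chr2:3575255-3575279, plus strand: tCCTCCTCgcgctgtttccgcctct
RPL24, chr3:101686699-101686723, minus strand: tCTCTCTTTCTTTTCgccatctttt
RPL35A, chr3:197950185-197950209, plus strand: tcgtCCTTCTCTTaccgccatcttg
RPL22, chr1:6199576-6199600, minus strand: aCCTCCCTTTCTaactccgctgccg

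A start motif was searched as a C at the annotated start followed by at least 4 pyrimidines, on the transcribed strand only. Of the sequences shown, RPL3 and RPS7 did not carry it at the annotated start, and both carried it within 15 bases. It stood at the start of 47 of the 63 members matched in the RefSeq table (74.6%), against 5.14% of all 27305 genes in that table. A gene counted if any of its starts listed there carried it. Large and small subunit members carried it alike, at 73.7% and 76.0%, while mitochondrial ribosomal protein genes, whose proteins form the separate ribosome of that organelle, had it in 8.70%. Allowing the motif anywhere within 15 bases of the start gave 95.2% of members and 48.5% of all genes. The motif did not divide the members by their response: of 46 tested members with it 6 rose and 1 fell (median log2 fold change 0.081), and of 16 without it 3 rose and 1 fell (median 0.050). A match is a description of these letters and no measure of translation.

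The ribosomal protein genes changed little when PELP1 was silenced. Of the 76 members with enough counts to test, 9 rose and 2 fell at an adjusted p under 0.05 (edgeR quasi-likelihood test, Benjamini-Hochberg adjustment over all 13234 genes tested), and 65 did not pass. Thus 14.5% of the members passed, against 27.9% of all genes tested (12.9% higher and 15% lower), and 18 members had an unadjusted p under 0.05. The members' median log2 fold change was 0.073, against 0.00088 over all genes tested, and 59 of the 76 values were positive. Their median absolute log2 fold change was 0.097, against 0.18 over all genes tested, a set not matched to the members in level. The PELP1 siRNA libraries were further apart in the members, with a median absolute log2 difference of 0.18, against 0.13 over all genes tested. No member above 100 CPM moved by more than 0.26 on the log2 scale. The libraries of the groups overlapped in 45 members, the PELP1 siRNA libraries lay above in 26 and below in 5, so 31 of 76 did not overlap, against 64.2% of all genes tested.

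**Figure D1:**
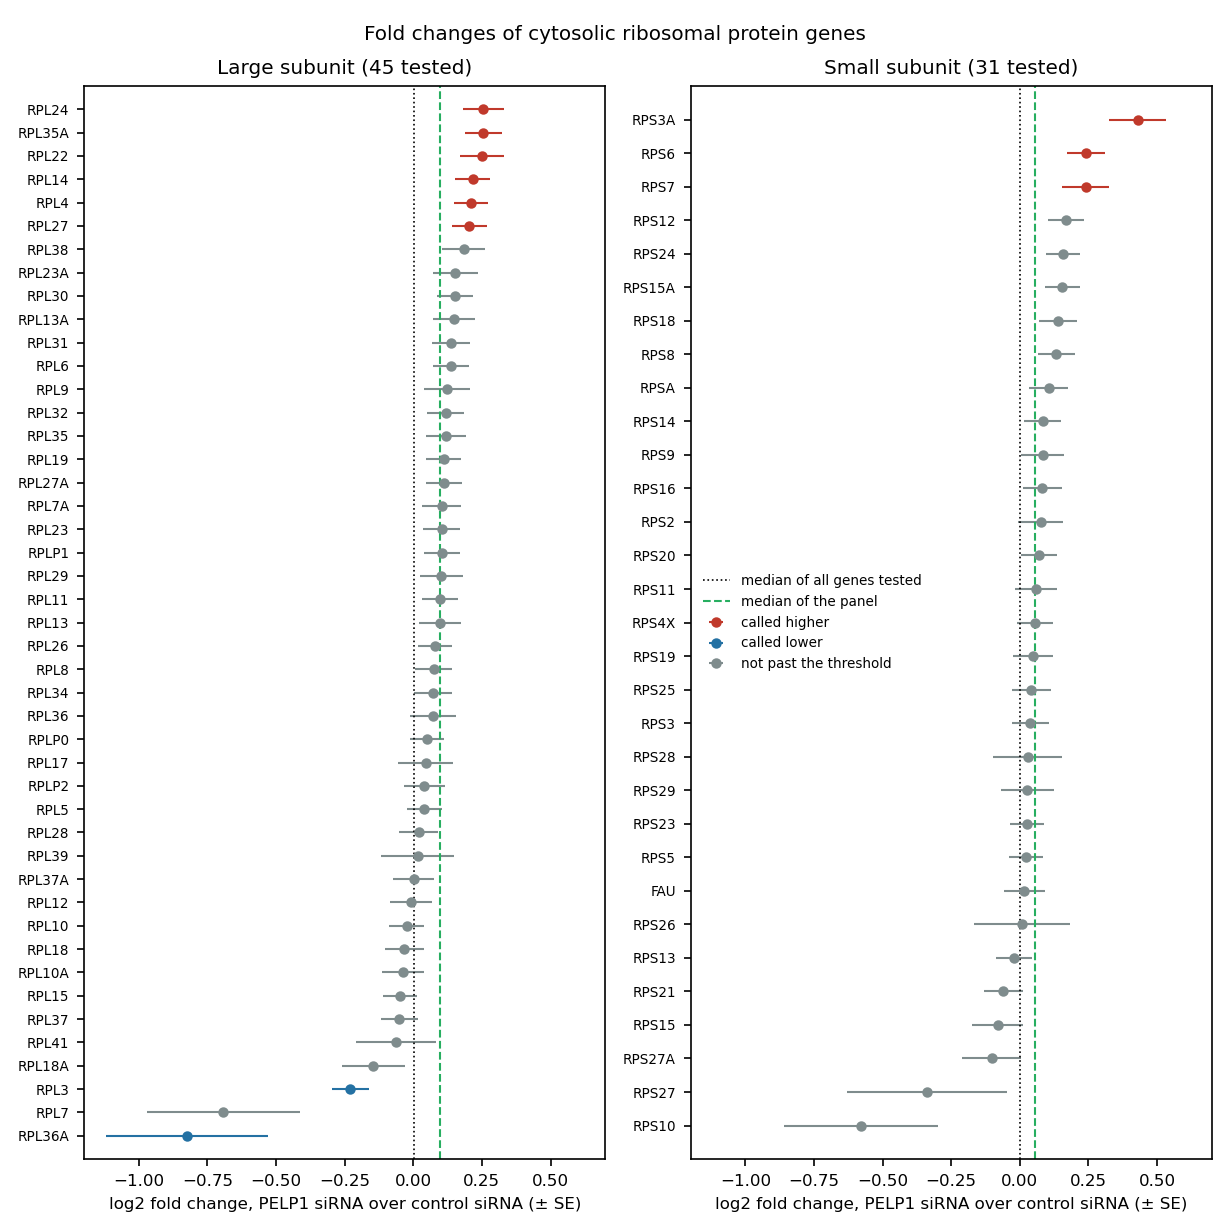
Log2 fold change of every tested ribosomal protein gene, PELP1 siRNA over control siRNA, with bars of 1 SE, for the large and the small subunit. Members in red passed the threshold as higher, those in blue as lower and those in grey did not pass, and dashed lines mark each subunit's median. The widest bars belong to the members of a few CPM such as RPL36A and RPL7.

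The large subunit, which PELP1 helps to assemble, did not stand apart from the small one. Of 45 large subunit members 6 rose, 2 fell and 37 did not pass, and of 31 small subunit members 3 rose, 0 fell and 28 did not pass. The median log2 fold change was 0.096 for the large and 0.054 for the small subunit. The difference between these medians was 0.042, and the SD between replicates of the large minus small difference was 0.048. Against the mean of the controls the large subunit median was -0.0030 in PELP1 siRNA library 1 and 0.18 in library 2. The small subunit median was -0.032 in library 1 and 0.15 in library 2, so both subunits shared the gap between these libraries. Summed over members, large subunit counts were 1.61 times the small subunit counts in both PELP1 siRNA libraries, against 1.62 and 1.60 times in the control siRNA libraries. Together both subunits took 1.75% and 1.97% of all gene counts in the PELP1 siRNA libraries, against 1.70% and 1.71% in the control siRNA libraries. The PELP1 siRNA shares were thus further from each other than the lower of them was from the controls.

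This gap between the PELP1 siRNA libraries ran through nearly the whole family. In 74 of the 76 tested members PELP1 siRNA library 2 was above library 1, RPL36A and RPL6 being the exceptions, with a median log2 difference of 0.18. The control siRNA libraries showed no such order, with 38 of 76 members higher in library 2 and a median of 0.0020. The gap between the PELP1 siRNA libraries was wider than the member's own log2 fold change in 57 members, and the gap between the control siRNA libraries in 24. With PELP1 siRNA library 1 left out 48 members rose and 2 fell, where 20.7% of all genes rose and 21.3% fell. With library 2 left out 10 rose and 13 fell, where 19.7% of all genes rose and 20.2% fell, so the family's balance of rises and falls turned on which PELP1 siRNA library was read. The median log2 fold change of the large subunit was 0.19 without PELP1 siRNA library 1 and -0.00046 without library 2, and that of the small subunit 0.16 without library 1 and -0.030 without library 2.

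**Figure D2:**
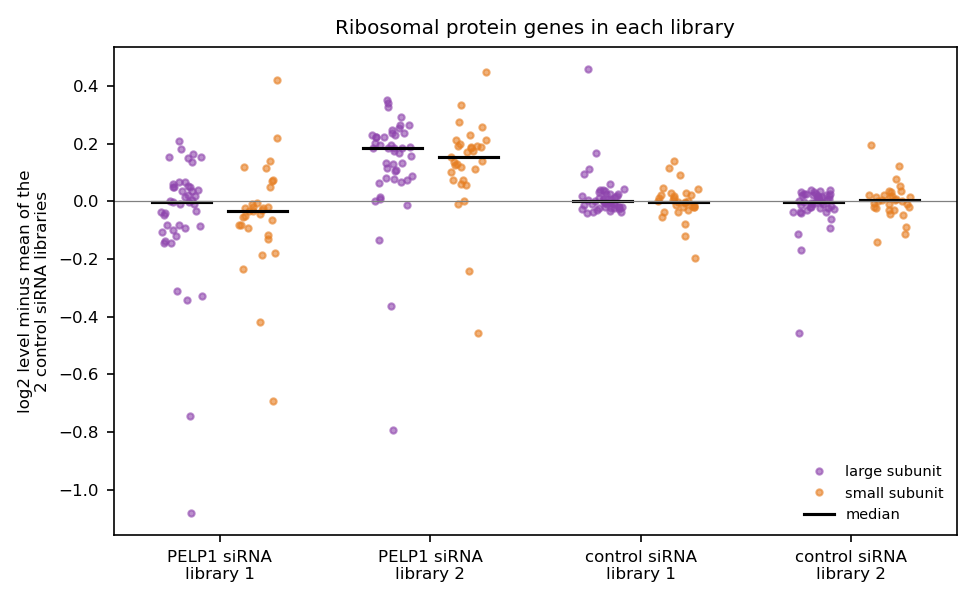
Log2 level of each tested ribosomal protein gene in each library, relative to the mean of the 2 control siRNA libraries, with points for genes of the large and small subunit and bars for their medians. PELP1 siRNA library 2 sits above the other 3 libraries as a block, with medians of 0.18 and 0.15, while library 1 is centred near the controls.

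Short transcripts outside the family carried the same gap. Among 940 other tested genes with transcripts of up to 1000 bases 81.3% were higher in PELP1 siRNA library 2 than in library 1, with a median log2 difference of 0.14. The median of this difference was 0.088 for transcripts over 1000 and up to 2000 bases, 0.0094 for those up to 4000 bases and -0.096 for longer ones. The control siRNA pair showed medians between -0.0082 and 0.020 in these classes. The log2 fold change followed the same order, from 0.10 in the shortest class to -0.044 in the longest. When a smooth trend with transcript length and GC content was removed from each library, the medians became 0.016 for the large and 0.0029 for the small subunit, and 6 members rose and 6 fell, where 21.5% of all genes rose and 18.2% fell. The part of transcript length in the library gap was not tested in any other way.

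**Figure D3:**
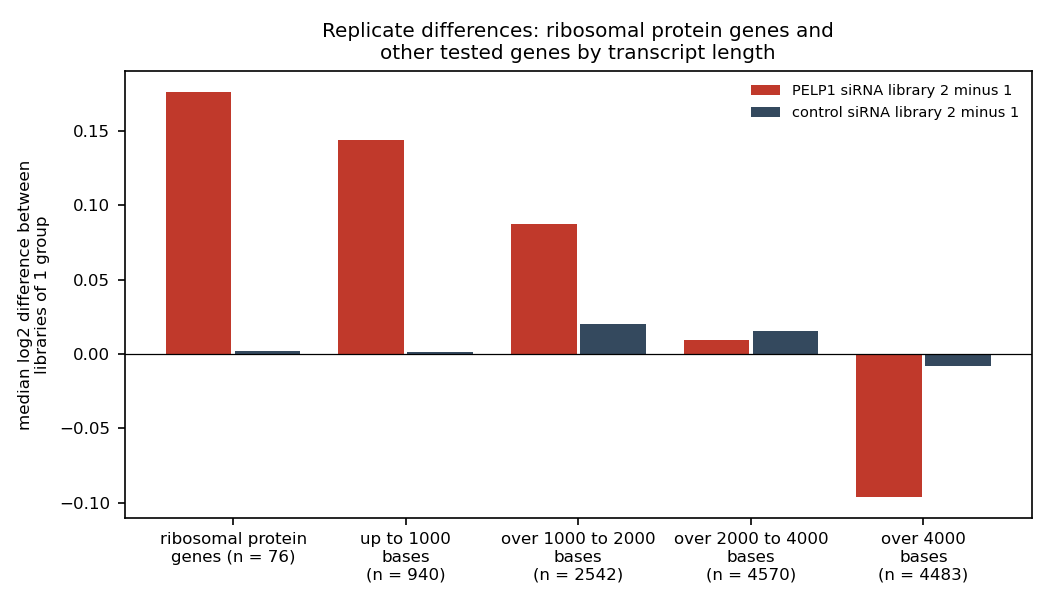
Median log2 difference between the libraries of a group, library 2 minus library 1, for the ribosomal protein genes and for other tested genes by transcript length class; red bars are PELP1 siRNA and dark bars control siRNA. The PELP1 siRNA bars step down from 0.18 in the ribosomal protein genes and 0.14 in the shortest class to -0.096 in the longest, while the control siRNA bars lie between -0.0082 and 0.020.

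Among the large subunit members that rose, RPL24 and RPL35A had the largest changes. RPL24 (GRCh37 chromosome 3, 101399935 to 101405577, minus strand), which reaches across to the small subunit as part of a bridge, was at 127 and 146 CPM in the PELP1 siRNA libraries, against 113 and 115 CPM in the control siRNA libraries. The groups did not overlap, and the PELP1 siRNA libraries were further apart than the controls (log2 fold change 0.26, SE 0.074, adjusted p = 0.0116). RPL35A (chromosome 3, 197677061 to 197683481, plus strand), a gene mutated in the congenital anaemia of Diamond and Blackfan, was at 312 and 353 CPM with PELP1 siRNA, against 282 and 276 CPM with control siRNA. PELP1 siRNA library 2 was the highest of the 4 (log2 fold change 0.26, SE 0.067, adjusted p = 0.00604). RPL22 (chromosome 1, 6245080 to 6269449, minus strand), a protein of the ribosome's surface that also regulates the RNA of its own paralog in mice, was at 61.7 and 65.3 CPM with PELP1 siRNA, against 51.9 and 54.8 CPM with control siRNA. Here the pairs were about equally tight (log2 fold change 0.25, SE 0.081, adjusted p = 0.0235).

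The other large subunit members that rose were RPL14, RPL4 and RPL27. RPL14 (chromosome 3, 40498783 to 40510078, plus strand) was at 203 and 213 CPM with PELP1 siRNA, against 179 CPM in both control siRNA libraries, with libraries close together in both groups (log2 fold change 0.22, SE 0.064, adjusted p = 0.0143). RPL4 (chromosome 15, 66790353 to 66816870, minus strand), whose long loop lines the tunnel through which the new peptide leaves, was at 599 and 646 CPM with PELP1 siRNA, against 529 and 548 CPM with control siRNA. RPL4 was the most abundant member that rose (log2 fold change 0.21, SE 0.062, adjusted p = 0.0138). RPL27 (chromosome 17, 41150290 to 41154976, plus strand), another Diamond-Blackfan gene, was at 309 and 332 CPM with PELP1 siRNA, against 282 and 275 CPM with control siRNA (log2 fold change 0.20, SE 0.064, adjusted p = 0.0194). All 3 genes had both PELP1 siRNA libraries above both controls.

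RPL3 and RPL36A were the members that fell. RPL3 (chromosome 22, 39708887 to 39716394, minus strand), a large protein that reaches to the site of peptide bond formation, was at 589 and 674 CPM in the PELP1 siRNA libraries, against 720 and 759 CPM in the control siRNA libraries. It fell although PELP1 siRNA library 2 was again above library 1, and the groups did not overlap (log2 fold change -0.23, SE 0.067, adjusted p = 0.0121). Among the 70 tested members above 10 CPM it had the lowest value, the others reaching up to 0.43. RPL36A (chromosome X, 100645812 to 100651143, plus strand), which lies near the site where used transfer RNAs leave, had only 28 and 26 counts with PELP1 siRNA, against 64 and 39 counts with control siRNA. The control libraries differed from each other by more than the groups did (log2 fold change -0.83, SE 0.30, adjusted p = 0.0396), and 43.8% of its exon bases are shared with the readthrough gene RPL36A-HNRNPH2 on the same strand.

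Of the small subunit RPS3A, RPS6 and RPS7 rose. RPS3A (chromosome 4, 152020776 to 152025794, plus strand), a protein of the platform near the exit of the mRNA channel, had the largest rise of all members, with 23.4 and 23.9 CPM in the PELP1 siRNA libraries, against 16.6 and 18.5 CPM in the control siRNA libraries. It was also the member with the most even PELP1 siRNA pair among those that rose (log2 fold change 0.43, SE 0.10, adjusted p = 0.00295). It shares 24.1% of its exon bases with SH3D19 on the opposite strand, and SH3D19 itself stood at 148 and 133 CPM with PELP1 siRNA, against 118 and 122 CPM with control siRNA (log2 fold change 0.22, adjusted p = 0.0212). Whether the counting used strand is not given in the sources used here, so how reads over the shared bases were treated is not known. Reads that the counter called ambiguous, 1.06 to 1.09% of each column, were left out of the gene counts. The part of SH3D19 in the rise of RPS3A was not tested.

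RPS6 (chromosome 9, 19375713 to 19380234, minus strand), the protein whose phosphorylation by S6 kinase is the usual readout of mTORC1, was at 469 and 488 CPM with PELP1 siRNA, against 371 and 438 CPM with control siRNA. The controls were wider apart than the PELP1 siRNA libraries, and control library 1 was the lowest of the 4 (log2 fold change 0.24, SE 0.071, adjusted p = 0.0125). A long noncoding RNA on the opposite strand shares 20.6% of its exon bases. RPS7 (chromosome 2, 3622850 to 3628510, plus strand), which also binds MDM2, was at 52.9 and 60.4 CPM with PELP1 siRNA, against 46.9 and 49.0 CPM with control siRNA. Its adjusted p was the nearest to the threshold among all called members (log2 fold change 0.24, SE 0.087, adjusted p = 0.0427).

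Most of these 11 calls were lost when a control library was left out. Without control library 1 none of the 11 passed and 0 members rose or fell, with 1477 of all genes still passing. The log2 fold change was then 0.13 for RPS6 and -0.32 for RPL36A, each changed by over 1.5 times, while the other 9 moved less, as with RPL24 at 0.24 and RPL14 at 0.21. Without control library 2 RPS3A, RPS6 (0.37) and RPL36A (-1.24) passed and the other 8 did not. RPS6 also missed the threshold without PELP1 siRNA library 1 (adjusted p = 0.0704) and without library 2 (adjusted p = 0.132), as did RPS7 without library 2 (log2 fold change 0.14, adjusted p = 0.0961). RPL24 and RPL35A still passed without PELP1 siRNA library 2, at 0.16 and 0.17, and RPL3 without library 1, at -0.13. A single remaining library is taken in such a fit to vary as the libraries of the other group do. DESeq2's Wald test called 7 of the 9 rises, without RPL22 (adjusted p = 0.0538) and RPS7 (adjusted p = 0.098), and RPL3 but not RPL36A (adjusted p = 0.189) among the falls. With libraries scaled by total counts alone 18 members rose and 0 fell, in place of 9 and 2, while over all genes 17.2% rose and 12.1% fell, and RPL3 was at an adjusted p of 0.0524.

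**Figure D4:**
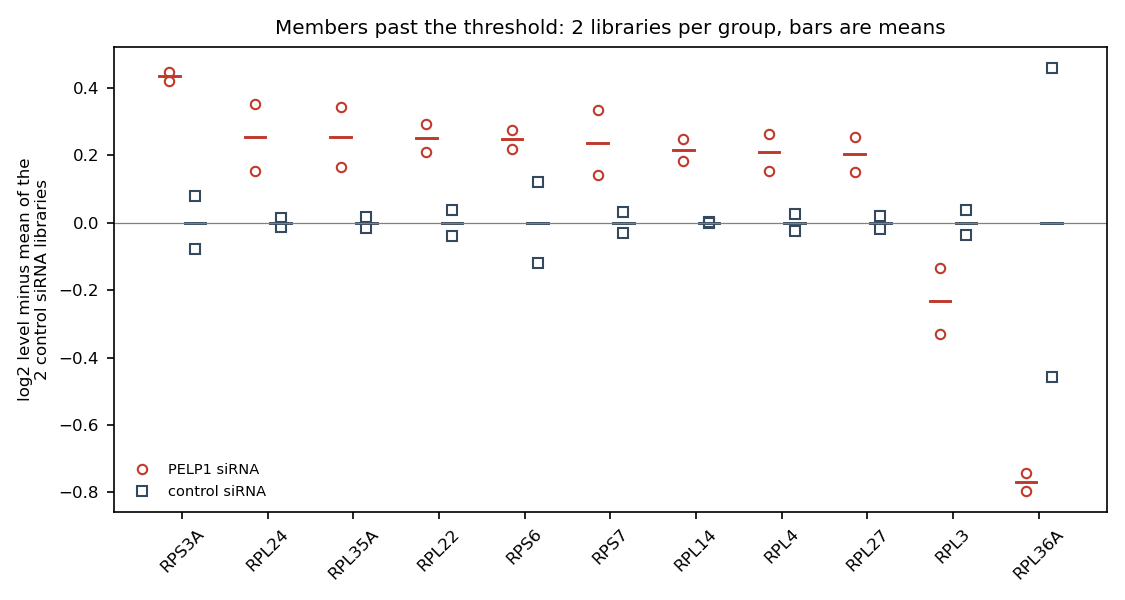
Log2 level of each of the 11 changed members in every library, relative to the mean of the 2 control siRNA libraries, with PELP1 siRNA as circles left of control siRNA as squares and bars for group means. The circles lie above the squares in the 9 members that rose and below them in RPL3 and RPL36A, whose control libraries are far apart.

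The remaining members stayed below the threshold, between -0.69 and 0.18 in the large and between -0.58 and 0.17 in the small subunit on the log2 scale, with adjusted p of at least 0.0671 and 0.0624. RPL5 and RPL11 carry 5S ribosomal RNA into the large subunit and bind MDM2 when assembly fails. With all 4 libraries they showed 0 rises and 0 falls. RPL5 was at 227 and 241 CPM with PELP1 siRNA, against 226 and 229 CPM with control siRNA (log2 fold change 0.039, SE 0.064, adjusted p = 0.687). RPL11 was at 620 and 715 CPM with PELP1 siRNA, against 624 and 623 CPM with control siRNA (log2 fold change 0.097, SE 0.066, adjusted p = 0.294). In both genes the libraries of the groups overlapped.

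The P stalk proteins, which draw elongation factors to the ribosome, likewise gave 0 rises and 0 falls with all 4 libraries. RPLP0, the base of the stalk, was at 572 and 616 CPM with PELP1 siRNA, against 565 and 582 CPM with control siRNA (log2 fold change 0.051, adjusted p = 0.575). RPLP1 was at 508 and 571 CPM with PELP1 siRNA, against 515 and 489 CPM with control siRNA (log2 fold change 0.10, adjusted p = 0.255), and RPLP2 at 261 and 308 CPM with PELP1 siRNA, against 288 and 265 CPM with control siRNA (log2 fold change 0.040, adjusted p = 0.720). In all 3 genes the libraries of the groups overlapped.

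The genes that encode ubiquitin or a ubiquitin-like protein fused to a ribosomal protein also did not pass with all 4 libraries. RPS27A was at 113 and 129 CPM with PELP1 siRNA, against 112 and 147 CPM with control siRNA (log2 fold change -0.10, adjusted p = 0.520). FAU was at 148 and 177 CPM with PELP1 siRNA, against 164 and 157 CPM with control siRNA (log2 fold change 0.017, adjusted p = 0.892). GNB2L1, the older symbol of RACK1, a signalling scaffold on the head of the small subunit, was at 981 and 1090 CPM with PELP1 siRNA, against 1030 and 1047 CPM with control siRNA (log2 fold change -0.0048, adjusted p = 0.963). In these 3 genes the libraries of the groups overlapped.

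By place in the ribosome, 0 of 13 tested proteins of the 40S head changed (median log2 fold change 0.038). RPS3A, RPS6 and RPS7 made up the 3 rises among 18 proteins of the 40S body and platform (16.7%, median 0.079, 0 falls), near the 12.9% of all genes tested that rose, and the difference between head and body was not tested. The 6 proteins around the exit of the 60S peptide tunnel gave 0 rises and 0 falls with a median of 0.11. Of 17 tested genes mutated in Diamond-Blackfan anaemia 3 rose, RPL35A, RPL27 and RPS7, and 0 fell (17.6% higher, median 0.047), also near that background. Members whose introns carry small nucleolar RNAs, guides for the modification of ribosomal RNA, did not stand apart: 3 of 28 tested hosts rose and 1 fell (median 0.086), and of 48 members with none 6 rose and 1 fell (median 0.071).

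Beside these changes, levels within the family spread over several orders of magnitude. Per kilobase of coding sequence with up to 100 untranslated bases on each side, RPS19, RPL11 and RPL37A were the highest. RPS19, the gene most often mutated in Diamond-Blackfan anaemia, averaged 1024 CPM per kilobase with PELP1 siRNA and 991 CPM per kilobase with control siRNA. RPL11 averaged 1023 CPM per kilobase with PELP1 siRNA and 957 with control siRNA, and RPL37A 973 with PELP1 siRNA and 972 with control siRNA. At the other end RPL21 had 1 count in PELP1 siRNA library 2 and none elsewhere. A count of 0 allows up to 0.152 CPM in PELP1 siRNA library 1. In control siRNA libraries 1 and 2 it allows up to 0.155 and 0.134 CPM. RPL21 could not be tested.

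Sequence copies ran alongside these levels. Each member's transcript was cut into 50-base windows, the length of the reads, and a window counted as copied when it occurs elsewhere in GRCh37 with no mismatch. The median member had 44.8% of its windows copied, 17 members had 80% or more, and GENCODE lists 1590 pseudogenes under the members' names. RPL21 was copied over all its windows and has 133 such pseudogenes. RPL38, at 0% copied, RPLP2, at 0.242%, and RPL35A, at 0.649%, were the members closest to single copy. Across the 78 genes the copied share and the level per kilobase had a Spearman correlation of -0.815, and the copied share and the number of pseudogenes one of 0.503, both as descriptions of genes that share libraries. Reads aligned to several places are usually left out of gene counts, and they made up 26.3 to 27.5% of all lines here.

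**Figure D5:**
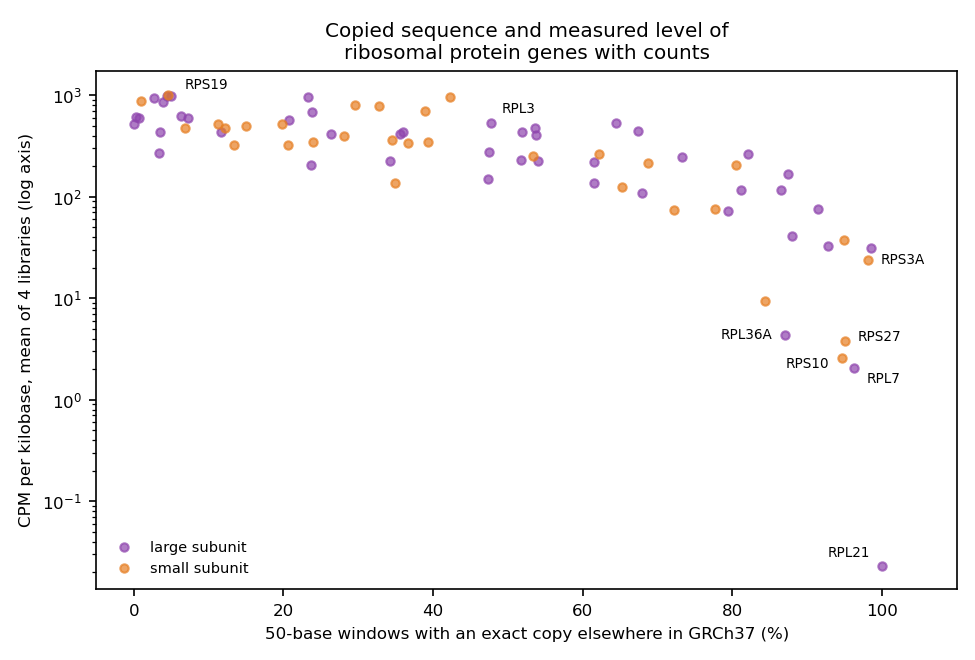
Share of 50-base windows with an exact copy elsewhere in the genome (per cent) against the mean level over all 4 libraries (CPM per kilobase, log axis) for the ribosomal protein genes with counts. Levels fall with the copied share, and RPL21 lies at the bottom.

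The median level was 613 CPM per kilobase in the 14 members with under 10% of windows copied, 425 in the 28 with 10 to under 50%, 224 in the 19 with 50 to under 80%, 116 in the 8 with 80 to under 90%, and 23.7 in the 9 with 90% or more. The fold changes did not follow this order closely, with medians of 0.059, 0.083, 0.091, 0.076 and -0.064 on the log2 scale. Their median SE was 0.071, 0.067, 0.072, 0.082 and 0.13 in the same classes, widest in the most copied members. Rises occurred at every copied share: 2, 1, 4, 1 and 1 in these classes. The part of sequence copies in single fold changes was not tested.

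Most of the members that stood furthest from the family's median were of this kind. With a scaled median absolute deviation of 0.091, RPL3, RPL36A, RPL7, RPS10, RPS27 and RPS3A lay over 3 such deviations away. RPL7, of the large subunit, was at 1.02 and 1.69 CPM with PELP1 siRNA, against 2.17 and 2.19 CPM with control siRNA (log2 fold change -0.69, adjusted p = 0.0671), with 96.2% of its windows copied. RPS10, a protein of the 40S head, was at 1.12 and 1.32 CPM with PELP1 siRNA, against 1.86 and 1.79 CPM with control siRNA (log2 fold change -0.58, adjusted p = 0.128), with 94.6% copied and 84.0% of its exon bases shared with the readthrough gene RPS10-NUDT3. RPS27, a zinc-binding protein of the small subunit, was at 1.12 and 1.26 CPM with PELP1 siRNA, against 1.44 and 1.56 CPM with control siRNA (log2 fold change -0.34, adjusted p = 0.414), with 15 of its 303 windows occurring once. These 3 genes lay below the controls in every library without passing the test. Of the 6, RPL3 alone was abundant, with 47.8% of its windows copied, and RPS3A had only 15 of 820 windows that occur once.

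Paralogs of the family moved in both directions. Of 11 paralogs outside the symbol rule 6 had enough counts, 1 rose and 1 fell. Each is 16.7% of those tested, against 12.9% and 15% of all genes tested. RPL39L, a form of RPL39 best known from the testis and from cancer lines, was at 17.2 and 19.6 CPM with PELP1 siRNA, against 13.5 and 14.0 CPM with control siRNA (log2 fold change 0.42, adjusted p = 0.00698). RPL39 itself had a log2 fold change of 0.016 (SE 0.13). Only 4 of the 258 windows of RPL39 occur once, so its count covers little of its mRNA and the contrast with RPL39L is weak. RPL22L1 was at 132 and 145 CPM with PELP1 siRNA, against 167 and 159 CPM with control siRNA (log2 fold change -0.23, adjusted p = 0.0141), the opposite direction to its partner RPL22. RPL36AL was at 71.5 and 82.2 CPM with PELP1 siRNA, against 64.5 and 70.2 CPM with control siRNA (log2 fold change 0.19, adjusted p = 0.0928). Neither RPL39L nor RPL22L1 passed when either control library was left out.

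The mitochondrial ribosomal protein genes moved upward more often. Of 76 tested 18 rose (23.7%) and 1 fell (1.32%), against 12.9% and 15% of all genes tested. Their median log2 fold change was 0.15. Their share of all gene counts was 0.485% and 0.517% in the PELP1 siRNA libraries, against 0.437% and 0.436% in the control siRNA libraries. Unlike the cytosolic members, they had a median above the controls in both PELP1 siRNA libraries, 0.097 in library 1 and 0.20 in library 2, though 64 of 76 were again higher in library 2. MRPS6 was at 217 and 234 CPM with PELP1 siRNA, against 160 and 162 CPM with control siRNA (log2 fold change 0.48, adjusted p = 6.30e-06). MRPS27 also rose (log2 fold change 0.33, adjusted p = 4.82e-04), though not without control library 1. MRPL35 was the member that fell, at 61.9 and 62.0 CPM with PELP1 siRNA, against 98.4 and 101 CPM with control siRNA (log2 fold change -0.69, adjusted p = 2.33e-07). The difference between the cytosolic and mitochondrial sets was not tested. Tested genes outside the cytosolic family had a median log2 fold change of 0.10 for transcripts up to 1000 bases. For those over 1000 to 2000 bases it was 0.048. The part of transcript length in the mitochondrial set was not tested.

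Of 22 translation factors and other genes with 5′ TOP mRNAs 4 rose and 1 fell (median log2 fold change 0.038). That is 18.2% and 4.55%, against 12.9% and 15% of all genes tested. All 5 were subunits of initiation factor eIF3 or EEF1G. EIF3H was at 258 and 272 CPM with PELP1 siRNA, against 211 and 220 CPM with control siRNA (log2 fold change 0.30, adjusted p = 0.00113), and EIF3F at 72.0 and 78.2 CPM with PELP1 siRNA, against 59.4 and 59.2 CPM with control siRNA (log2 fold change 0.34, adjusted p = 0.00215). EIF3L went the other way, at 200 and 210 CPM with PELP1 siRNA, against 243 and 253 CPM with control siRNA (log2 fold change -0.27, adjusted p = 0.00243). Subunits of 1 complex changed in opposite directions. None of these 3 genes passed without control library 1, and of them EIF3H alone passed without control library 2.

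Among 18 regulators of mTORC1 and of 5′ TOP mRNAs 3 rose and 2 fell (median 0.0080). These shares, 16.7% and 11.1%, were near the 12.9% and 15% of all genes tested. EIF4EBP2, a repressor of cap-dependent initiation, was at 124 and 123 CPM with PELP1 siRNA, against 99.9 and 99.6 CPM with control siRNA (log2 fold change 0.31, adjusted p = 0.00169), and the kinase gene MTOR at 212 and 196 CPM with PELP1 siRNA, against 171 CPM in both control siRNA libraries (log2 fold change 0.25, adjusted p = 0.00556). MYC, a transcription factor that drives ribosome production, fell to 45.8 and 50.6 CPM with PELP1 siRNA, against 65.8 and 67.2 CPM with control siRNA (log2 fold change -0.47, adjusted p = 1.68e-04). SESN2, a stress-induced inhibitor of mTORC1, was at 44.8 and 53.3 CPM with PELP1 siRNA, against 63.0 and 59.7 CPM with control siRNA (log2 fold change -0.32, adjusted p = 0.00877). EIF4EBP2, MTOR and SESN2 did not pass when either control library was left out, and MYC passed in both of those fits.

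MDM2, the ligase that free RPL5 and RPL11 inhibit, rose to 224 and 206 CPM with PELP1 siRNA, against 192 and 188 CPM with control siRNA (log2 fold change 0.18, adjusted p = 0.0443). Among the 6 genes of the PELP1 complex SENP3, a protease that removes SUMO from PELP1, rose to 19.9 and 21.9 CPM with PELP1 siRNA, against 16.9 and 16.3 CPM with control siRNA (log2 fold change 0.33, adjusted p = 0.0201), PELP1 fell and the other 4 did not pass. MDM2 and SENP3 did not pass when either control library was left out.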

How the data were processed

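The deposited files hold read counts per gene symbol, 1 per library, deposited by the authors as whole numbers with no scaling. Per the submitters' processing notes, CASAVA 1.8.2, TopHat2 2.0.8b and HTSeq were used with hg19 (GRCh37); per the labels' protocols, libraries were TruSeq Total RNA read as 50-base single ends. The strand setting is not given in the sources used here, nor is the annotation release. The counter's summary lines (36.0 to 37.6% of each column) were left out.

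Of 23228 symbols 13234 passed filterByExpr (minimum count 10, minimum total count 15). After TMM scaling, edgeR 4.0.16 under R 4.3.3 fitted a quasi-likelihood model to them, robust and with group as its term, and every adjusted p is Benjamini-Hochberg over all genes tested unless another tool is named. The common biological coefficient of variation was 5.23%, and for members of a few CPM counting also limits precision. The limits given for a count of 0 are 3 counts, cover counting error only and are per library. The procedure was tested on simulated data. The members and lists were chosen with earlier results of these data known.

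Lengths, overlaps and pseudogenes came from GENCODE v44lift37, and lengths were found for 95.3% of genes tested. Window copies were searched on both strands of GRCh37. The members named are those called, those over 3 scaled median absolute deviations from the median, the 3 highest and 3 lowest per kilobase, those not tested, and the 5S, P stalk and fusion proteins, and from each other list the 2 called genes of lowest adjusted p in each direction. SH3D19, RPL38, RPL39, RPL36AL, RPL6 and GNB2L1 were named after their values were seen, and some genes that the rule names are not reported here. Alternatives were other scalings, filters and fits, DESeq2 1.42.0, limma-voom (limma 3.58.1), each library left out, a replicate block, and a length and GC trend (mgcv 1.9.3).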

Additional observations from a re-analysis of the deposited data

How the results depend on the processing

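The 9 rises and 2 falls among members held, within 1 call in each direction, under DESeq2 size factors, upper quartile scaling, TMM without the members, no filter, a filter of 5 CPM (1 fall of 71 tested), a fit that was not robust and limma-voom (1 fall). Total counts alone gave 18 rises and 0 falls, where 17.2% of all genes rose and 12.1% fell. DESeq2 gave 7 and 1, with 1133 of all genes higher. Removing the length and GC trend gave 6 rises and 6 falls, with 2840 of all genes higher. The replicate numbers are shared by the groups, and deviations of same-numbered libraries had a correlation of -0.031. This value cannot decide whether the libraries are paired, since the PELP1 siRNA deviations stepped with transcript length, from 0.14 to -0.096. Those of the control siRNA pair lay between -0.0082 and 0.020. The replicate block gave 8 rises and 2 falls, RPS7 being at an adjusted p of 0.0521. Together with removal of the length and GC trend it gave 8 and 8, with 5545 of all genes called, 3002 of them higher. The large subunit median was then 0.015.

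Leaving out 1 library in turn gave 0 to 48 rises and 0 to 13 falls among members, 1477 to 5552 genes called, 528 to 2733 higher and 949 to 2819 lower, with subunit medians of -0.00046 to 0.19 (large) and -0.030 to 0.16 (small). In the same fits some members that were not called with all 4 libraries crossed 0. RPL37A ran from -0.14 to 0.14, RPLP2 from -0.080 to 0.16, RPS27A from -0.28 to 0.11 and FAU from -0.11 to 0.14. RPS19 ran from -0.090 to 0.18, RPL11 from -0.0066 to 0.20, RPL5 from -0.00085 to 0.084 and RPLP0 from -0.00046 to 0.11. Except in RPS27A, the upper value came without PELP1 siRNA library 1. Some of these members passed in a fit with 1 library left out. RPL37A was -0.0092 with no filter, -0.0040 with 5 CPM, -0.0051 with the block and -0.0059 with limma-voom. Without the length and GC trend, and with the block as well, RPL37A was -0.023 and -0.031, RPL5 -0.066 in both, RPLP2 -0.0016 and -0.00082, and FAU -0.031 in both. The cause of these moves was not tested. With 2 libraries a group, counts near the threshold rest on single libraries, and members under 10 CPM are limited by depth.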

Other observations

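Pseudogenes that carry a symbol of their own in the count tables gave a further reading of copied ribosomal sequence. Of 27 found 16 had enough counts, 1 rose and 2 fell (median log2 fold change -0.029). That is 6.25% and 12.5%, against 12.9% and 15% of all genes tested. RPSAP52, a noncoding transcript whose name derives from the laminin receptor RPSA, fell to 11.1 and 12.8 CPM with PELP1 siRNA, against 23.8 and 23.4 CPM with control siRNA (log2 fold change -0.98, adjusted p = 4.25e-07). RPLP0P2 was at 10.8 and 11.96 CPM with PELP1 siRNA, against 13.9 and 14.6 CPM with control siRNA (log2 fold change -0.33, adjusted p = 0.0428), while its parent RPLP0 had a value of 0.051. RPL23P8 was at 28.1 and 35.9 CPM with PELP1 siRNA, against 25.3 and 25.1 CPM with control siRNA (log2 fold change 0.34, adjusted p = 0.0181). RPL23P8 and RPLP0P2 passed in neither fit with a control library left out, and reads from a pseudogene and from its parent cannot be told apart where they are alike.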
